A study of Caenorhabditis elegans with 2 samples.

Results

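The 71 nuclear genes of *Caenorhabditis elegans* that encode proteins of the mitochondrial ribosome were examined for binding of tagged SNPC-4. They were taken from the RefSeq annotation of WBcel235 (ce11) as the protein-coding genes whose symbol begins with *mrpl-* or *mrps-* followed by a digit, which gave 42 large-subunit genes and 29 small-subunit genes of 19971 nuclear protein-coding genes. A gene was called bound where the summit of a deposited peak lay within 500 bp of its annotated 5′ end. The 78 *rpl-* and *rps-* genes of the cytosolic ribosome, chosen by the same kind of rule, were set beside them.

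The data are chromatin immunoprecipitation with sequencing (ChIP-seq) from 2 biological replicates of 1 group, with no second condition. Both replicates were whole L3 larvae of strain OP179, genotype unc-119(ed3) III; wgIs179, pooled male and female, which carry an eGFP-snpc-4 insertion, and the labels name snpc-4 as the antibody target. The *unc-119* mutation and the transgene were therefore present in every sample, and the signal pools all tissues of the larva. The deposited files are a thresholded list of 2672 peaks, built from both replicates, and longer lists of 30000 regions each that mix peaks with background, for the pooled replicates, replicate 1 and replicate 2. The signal value of a region has no stated unit and can be compared only inside its list, so regions were ranked by it there, with rank 1 the strongest. The lists give no read counts, and the depth of each replicate is unknown.

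The mitochondrial ribosome translates the few proteins encoded by mitochondrial DNA, but its own proteins are encoded in the nucleus, translated in the cytosol and imported. SNPC-4 is the largest subunit of the small nuclear RNA activating protein complex (SNAPc), a factor known for binding the promoters of small nuclear RNA genes. Many *C. elegans* genes lie in operons, in which several genes on 1 strand are transcribed from the promoter of the first and separated by trans-splicing. For trans-spliced genes the annotated 5′ end is often the splice site and not the start of transcription.

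SNPC-4 peaks were found at 18 of the 71 mitochondrial ribosomal protein genes and at 59 of the 78 cytosolic ones, against 8.94% of all protein-coding genes. All 18 member summits lay upstream of the gene, as did all 59 cytosolic ones and 1669 of 1785 over all bound protein-coding genes. Most member summits were 80 to 200 bp away, whereas most cytosolic summits were 200 to 500 bp away. None of the 30 members with another gene close upstream on the same strand had a peak of its own, against 5.83% of all protein-coding genes so placed. That share lies inside the members' exact 95% interval, which reaches 11.6%, so no depletion was detectable.

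The DNA under 6 of the 18 peaks is shown first, because these windows hold the short words described further on and span the range of peak strength. Each is the window within 100 bp of the summit on the strand of the member gene, 5′ to 3′, read from RefSeq WBcel235. The windows are chrV:12728361-12728561 (plus strand) for *mrpl-49*, chrII:156010-156206 (minus strand, ended before the first exon) for *mrpl-28*, chrIV:14767796-14767996 (minus strand) for *mrps-7*, chrIII:1202270-1202470 (minus strand) for *mrpl-45*, chrIV:7709808-7710008 (plus strand) for *mrps-24* and chrIII:9848162-9848362 (minus strand) for *mrpl-36*. Capitals mark AGACGCAG, AAGTGCG and GCGCTCC in either orientation. The last 2 of these words can overlap by the letters GCG.
mrpl-49: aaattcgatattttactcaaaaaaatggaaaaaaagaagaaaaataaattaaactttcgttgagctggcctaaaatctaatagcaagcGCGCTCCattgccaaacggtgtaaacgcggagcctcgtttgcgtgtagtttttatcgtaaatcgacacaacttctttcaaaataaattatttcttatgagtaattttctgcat
mrpl-28: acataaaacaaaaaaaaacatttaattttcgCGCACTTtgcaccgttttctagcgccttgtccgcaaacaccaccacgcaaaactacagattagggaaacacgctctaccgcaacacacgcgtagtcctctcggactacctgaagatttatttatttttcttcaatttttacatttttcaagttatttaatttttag
mrps-7: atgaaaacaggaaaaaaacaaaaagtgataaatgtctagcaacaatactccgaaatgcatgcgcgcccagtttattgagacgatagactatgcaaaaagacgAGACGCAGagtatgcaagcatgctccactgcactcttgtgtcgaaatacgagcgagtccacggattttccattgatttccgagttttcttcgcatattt
mrpl-45: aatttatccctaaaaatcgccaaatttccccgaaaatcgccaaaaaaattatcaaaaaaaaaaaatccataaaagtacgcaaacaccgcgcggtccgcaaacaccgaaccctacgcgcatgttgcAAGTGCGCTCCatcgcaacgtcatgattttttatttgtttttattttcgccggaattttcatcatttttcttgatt
mrps-24: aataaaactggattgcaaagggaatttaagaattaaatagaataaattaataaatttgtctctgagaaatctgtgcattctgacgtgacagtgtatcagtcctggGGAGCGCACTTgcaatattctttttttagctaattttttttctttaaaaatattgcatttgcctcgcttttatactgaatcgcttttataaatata
mrpl-36: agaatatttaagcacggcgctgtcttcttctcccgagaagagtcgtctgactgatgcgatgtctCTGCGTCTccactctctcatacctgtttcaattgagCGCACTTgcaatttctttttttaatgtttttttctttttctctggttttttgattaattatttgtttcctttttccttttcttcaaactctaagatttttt

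The words AAGTGCG and GCGCTCC were picked after the member sequences had been seen, from several 7-base words with at least 3 G or C bases that recurred among them. Their counts are therefore a description of these windows, and no test was made. Other such words recurred as often as GCGCTCC or more often, among them ACGCAAA and AGTGCGC, each in 33.3% of member windows (6.35% and 7.33% of all windows). AAGTGCG or its reverse complement was present in 7 of the 18 member windows (38.9%), against 5 of 57 cytosolic windows (8.77%) and 189 of all 2646 nuclear peak windows of the same length (7.14%). In the 1330 windows of peaks at other protein-coding genes its share was 9.85%. GCGCTCC was present in 5 member windows (27.8%), against 5 cytosolic windows (8.77%), 9.7% of windows at other protein-coding genes and 177 of all windows (6.69%). The window between *mrpl-49* and *rpl-28* belongs to both ribosomal sets and holds GCGCTCC, so it is counted in each. At least 1 of these words stood in 9 of the 18 member windows, against 8 of 57 cytosolic windows and 12.5% of all windows. Both stood together at *mrpl-45*, *mrps-24* and *mrpl-47*. The words began between -69 and 29 bp from the summit and were found in both orientations relative to the gene, so they had no fixed strand at the members.

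AGACGCAG, a word known from an earlier account of these peaks, was in 2 member windows, at *mrps-7* and *mrpl-36* (11.1%), against 4 cytosolic windows (7.02%) and 411 of all windows (15.5%). Its share in windows at other protein-coding genes was 13.4%. GAGAGAGA and CACACACA were in none of the 18 member windows and none of the 57 cytosolic windows, against 12.1% and 8.13% of all windows. In windows at other protein-coding genes the shares were lower, 7.29% and 3.76%. With 18 windows, a count of 0 has an exact 95% upper bound of 18.5%, so the absence of these repeats at members was not distinguishable from their share over all peaks. The median A and T content was 63.9% in member windows, 57.2% in cytosolic windows, 59.2% at other protein-coding genes and 56.2% in all peak windows. A word match is a description of letters, and base composition differs between these sets.

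The share of mitochondrial ribosomal protein genes with a thresholded peak was 25.4% (18 of 71, exact 95% interval 15.8 to 37.1%), against 75.6% of the cytosolic genes (59 of 78, interval 64.6 to 84.7%) and 8.94% of all protein-coding genes (1785 of 19971). The intervals cover counting error over genes only, and neighbouring genes are not independent. The large subunit, with 11 of 42 genes (26.2%), and the small subunit, with 7 of 29 (24.1%), differed by less than their counting error. The gap between the mitochondrial and the cytosolic family depended on the width of the window. Within 250 bp of the 5′ end, 14 mitochondrial genes (19.7%) and 15 cytosolic genes (19.2%) had a peak, against 5.82% of all protein-coding genes. Where a peak counted only for the gene whose 5′ end was the nearest annotated start, 12 mitochondrial genes (16.9%) and 29 cytosolic genes (37.2%) remained, against 6.06% of all. For some cytosolic genes the nearest start was that of an annotated noncoding RNA, and for others that of another protein-coding gene. The summit stood at 1 bp from such a noncoding start at *rpl-10a* and at -122 bp at *rpl-11.2*, the smallest and largest of these distances. At the bound members the nearest start was always that of a protein-coding gene.

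The longer lists contain background regions and therefore reach more genes. A pooled region lay within 500 bp of 35 members (49.3%), against 66 cytosolic genes (84.6%) and 34.8% of all protein-coding genes. A replicate 1 region lay at 35 members (49.3%), against 69 cytosolic genes (88.5%) and 35.6% of all. A replicate 2 region lay at 46 members (64.8%), against 71 cytosolic genes (91%) and 36.8% of all. Regions in both replicate lists were present at 31 members (43.7%), against 68 cytosolic genes (87.2%) and 22.3% of all. The members' shares were thus above those of all protein-coding genes and below those of the cytosolic family in each list.

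The position of the summit differed between the families. Over the 18 bound members the median summit stood at -141.5 bp, where a negative sign means upstream of the 5′ end, with quartiles of -171.5 and -114 bp. Over the 59 bound cytosolic genes it stood at -291 bp, with quartiles of -370.5 and -249.5 bp, and over the 1785 bound protein-coding genes at -184 bp, with quartiles of -281 and -113 bp. The middle ranges of the 2 ribosomal families did not overlap. The summit lay 80 to 200 bp upstream at 13 of 18 members, against 5 of 59 cytosolic genes and 619 of 1785 protein-coding genes. It lay 200 to 500 bp upstream at 4 members, against 53 cytosolic genes and 835 protein-coding genes. The remaining member, *mrpl-47*, had its summit at -3 bp.

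**Figure D1:**
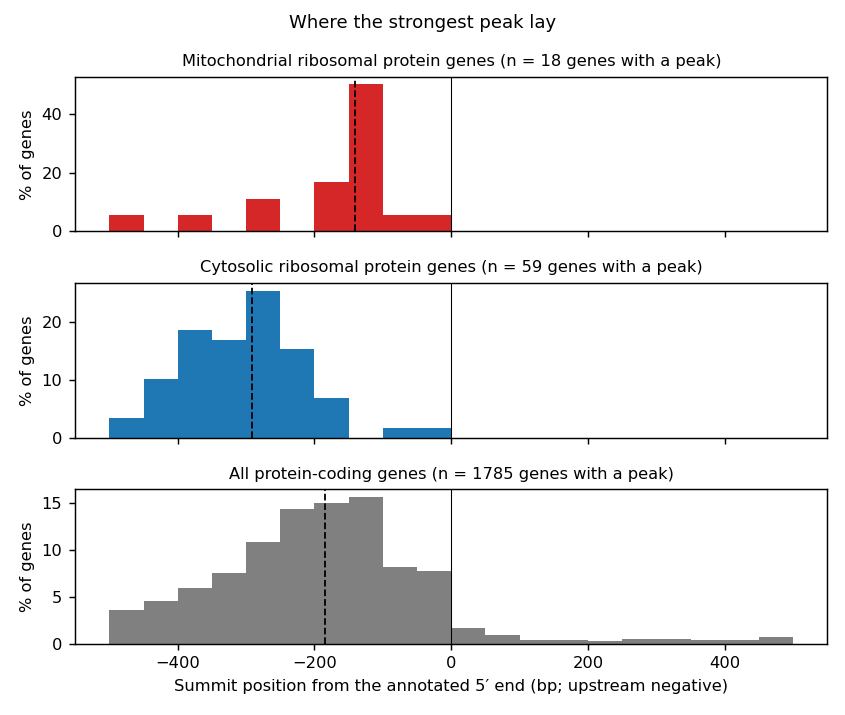
Position of the strongest thresholded summit from the annotated 5′ end, in bp with upstream negative, as the percent of bound genes in each 50-bp bin, for mitochondrial ribosomal protein genes (top), cytosolic ones (middle) and all protein-coding genes (bottom). Dashed lines are medians, at -141.5, -291 and -184 bp.

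The annotated 5′ ends may fall at a splice site in any of these sets, and their part in the difference in position was not tested. The difference was present at genes with a divergent neighbour and at those outside both neighbour classes, which are defined further on. Members with a divergent neighbour had a median summit at -166 bp (13 genes), against -287 bp for such cytosolic genes (35 genes). Members in neither the divergent nor the close same-strand class had a median at -118 bp (5 genes), against -322 bp for such cytosolic genes (23 genes). Over all bound protein-coding genes the medians were -184 bp with a divergent neighbour and -216 bp in neither class. The bound genes of the families differed in spacing within that last class. A same-strand gene stood 510 bp upstream at *rps-8* and 532 bp at *rps-4*, while the nearest at these bound members was 5962 bp away, at *mrpl-36*. Unbound members of the class had gaps down to 534 bp, at *mrpl-22*, so this difference holds for bound genes only.

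The member peaks were of middling strength. Their median rank was 887.5 of 2672 and their median signal 59.7, against rank 510 and signal 79.4 at bound cytosolic genes and rank 1108 and signal 52.9 at all bound protein-coding genes. The strongest cytosolic peaks, at *rpl-15* (rank 51, signal 451), *rpl-18A* (rank 56, signal 412) and *rpl-3* (rank 57, signal 409), exceeded every member peak. The 18 member peaks were 18 different peaks, so no peak served a pair of members within the window.

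The strongest was at *mrpl-49*, a large-subunit gene on chromosome V (12728631 to 12729417, plus strand). Its summit stood at -170 bp with a pooled signal of 124 (rank 220), a signal of 52.6 in replicate 1 (rank 373) and a signal of 68.9 in replicate 2 (rank 176). The same summit was at -349 bp from *rpl-28*, a cytosolic large-subunit gene that runs the other way and starts 519 bp from *mrpl-49*. The data do not assign the peak to one of these genes. None of the 71 members had a tRNA, snoRNA, snRNA, spliced leader or cytosolic ribosomal protein start within 500 bp of its own 5′ end.

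Of the other large-subunit genes, *mrpl-28* on chromosome II stood out as strong and isolated, with no other annotated start within 500 bp of its summit. The summit was at -97 bp, with a pooled signal of 89.3 (rank 406), 44.1 in replicate 1 (rank 515) and 47.0 in replicate 2 (rank 343). *mrpl-17* had a summit at -172 bp and ranked 569 in the pooled list, 730 in replicate 1 and 636 in replicate 2. Its summit was at -250 bp from the divergent *vbh-1*, a gene for a DEAD-box RNA helicase. *mrpl-35* (summit at -113 bp) ranked 924, 864 and 1313 in the pooled, replicate 1 and replicate 2 lists. Its summit was nearer to the divergent *M01F1.4*, at -91 bp from that gene. *mrpl-47* (summit at -3 bp) ranked 1144, 1581 and 1927, and *mrpl-55* (summit at -118 bp) ranked 1253, 2101 and 763. All 5 of these genes were therefore within the first 2672 regions of both replicates.

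In 3 other large-subunit genes the peak lay farther out and was also nearer to another gene. The summit for *mrpl-45* was at -362 bp (rank 692, replicates 765 and 989) but at -176 bp from the divergent *Y119D3B.12*. That for *mrpl-34* was at -295 bp (rank 1361, replicates 2222 and 1335) but at -115 bp from *lid-1*. That for *mrpl-12* was at -498 bp (rank 557), just inside the window, and at -235 bp from *Y39A1A.22*. In replicate 1 the *mrpl-12* region ranked 525 at -500 bp, while in replicate 2 the strongest region in the window ranked 10691 and lay at 117 bp, downstream of the 5′ end. A replicate 2 region of rank 801 lay just outside the window, at -521 bp. *mrpl-9* (summit at -131 bp) ranked 2027, 2398 and 2434, and it faced *kin-3*, which encodes a catalytic subunit of casein kinase 2. *mrpl-36* (summit at -146 bp) ranked 2525, 2528 and 3273 and was the weakest of the large-subunit peaks.

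Among the 7 small-subunit genes, *mrps-6* and *mrps-7* had the strongest peaks. *mrps-6* had a pooled signal of 94.3 (rank 370), 59.1 in replicate 1 (rank 294) and 32.7 in replicate 2 (rank 747). Its summit, at -279 bp, was at -266 bp from *rpn-8*, a subunit gene of the proteasome lid. *mrps-7* had a pooled signal of 87.8 (rank 419) at -166 bp, 42.9 in replicate 1 (rank 539) and 51.1 in replicate 2 (rank 294). Both were in the stronger part of every list. *mrps-18B* (summit at -149 bp) ranked 744, 496 and 1527 and had its summit at -136 bp from the divergent *prp-9*. *mrps-24* (summit at -137 bp) ranked 851, 818 and 837, the closest match between lists among the small-subunit genes.

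*mrps-31* (summit at -123 bp) ranked 1494, 1297 and 1937, and *mrps-35* (summit at -113 bp) ranked 1839, 1756 and 2035. The *mrps-35* summit lay 286 bp downstream of the 5′ end of *sws-1*, which runs the other way. *mrps-34* (summit at -110 bp) held the weakest member peak, with a signal of 29.2 (rank 2658) where the lowest signal in the thresholded list was 29.1. It ranked 8754 in replicate 1 and 1856 in replicate 2, so it was weak in replicate 1 in particular.

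**Figure D2:**
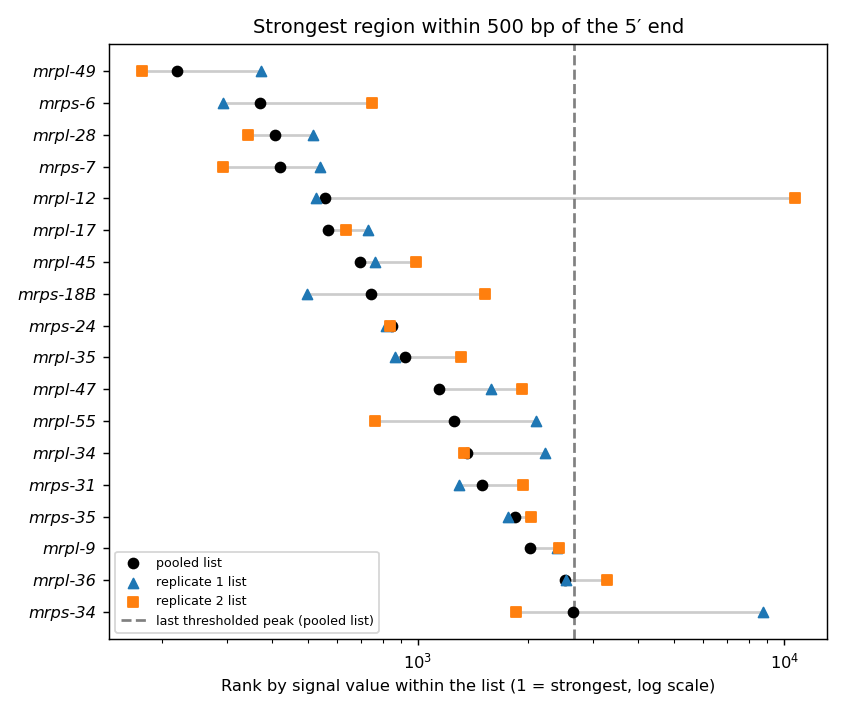
Rank by signal value, on a log axis with 1 the strongest, of the strongest region within 500 bp of each of the 18 bound members, in the pooled list (circles), replicate 1 (triangles) and replicate 2 (squares). The dashed line is the last thresholded peak, rank 2672, and *mrpl-12* in replicate 2 and *mrps-34* in replicate 1 lie farthest beyond it.

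Of the 18 bound members, 17 had a region among the first 2672 in replicate 1 and 16 in replicate 2, against 54 and 58 of the 59 bound cytosolic genes and 1495 and 1472 of the 1785 bound protein-coding genes. The ranks in the replicates had a Spearman correlation of 0.57 over the 18 genes and of 0.77 over the 31 members with a region in both lists, given as a description across genes that share the same libraries. Since the thresholded list was made from these replicates, their ranks are not independent of the call.

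Several member peaks lay between a pair of genes. The summit was nearest to the 5′ end of the member itself at 12 of 18 (66.7%), against 29 of 59 cytosolic genes (49.2%) and 67.3% of all bound protein-coding genes, so the members' share was near the general one. At 12 of 18 (66.7%, exact 95% interval 41.0 to 86.7%) it lay upstream of a divergent protein-coding gene within 500 bp as well, against 32 of 59 cytosolic genes (54.2%) and 43.5% of all bound genes, a share inside the members' interval. At 5 (27.8%), namely *mrpl-28*, *mrpl-36*, *mrpl-47*, *mrpl-55* and *mrps-31*, no other annotated start lay within 500 bp of the summit, against 23 cytosolic genes (39%) and 45% of all bound genes.

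The members were also grouped by the arrangement of their 5′ ends. In the first class, called close same-strand, another protein-coding gene on the same strand started upstream and ended within 500 bp of the 5′ end or overlapped it. Genes inside operons are spaced closely in this way, but the class is wider. The class held 30 of 71 members (42.3%), against 7 of 78 cytosolic genes (8.97%) and 20.4% of all protein-coding genes. These shares depend on the cutoff of 500 bp, which the gaps of some cytosolic genes exceeded only narrowly. In 21 of the 30 members the gap was at most 150 bp, against 4 of 7 cytosolic genes and 2091 of 4083 genes of this class over the genome. The smallest gap was 25 bp at members and -64174 bp over the genome, where a negative gap is an overlap. The genome-wide shares for this class thus include overlapping genes, whereas no member of the class overlapped its upstream gene. The annotation used here does not mark operons, so the class describes spacing only.

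None of the 30 close same-strand members had a thresholded peak (exact 95% upper bound 11.6%), against 1 of 7 such cytosolic genes (14.3%) and 5.83% of such genes over the genome (238 of 4083). The background share is within the members' interval, so a depletion relative to other close same-strand genes was not detectable with 30 genes. In the longer lists a region lay at 20% of the 30 in the pooled list, 20% in replicate 1 and 36.7% in replicate 2. Over all close same-strand genes these shares were 30.1%, 31.4% and 32.5%. In the second class the nearest gene that reached upstream was on the other strand, with its 5′ end within 1000 bp in either direction. Pairs that overlap at their 5′ ends, such as *mrps-35* and *sws-1*, were thus included. There 13 of 26 members had a peak (50%), against 35 of 45 cytosolic genes (77.8%) and 25.5% of all such genes. In the remaining class 5 of 15 members had a peak (33.3%), against 23 of 26 cytosolic genes (88.5%) and 5.22% of all such genes. Without the close same-strand genes, 18 of 41 members (43.9%) were bound, against 58 of 71 cytosolic genes (81.7%) and 9.74% of all protein-coding genes without one. The cytosolic share thus remained the higher one in both classes without a close same-strand gene.

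**Figure D3:**
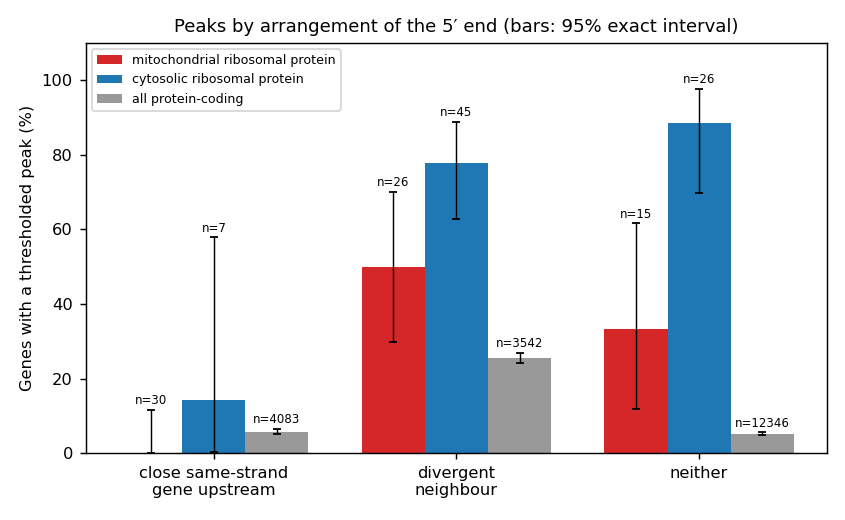
Percent of genes with a thresholded peak within 500 bp of the 5′ end, by arrangement class, for mitochondrial ribosomal protein genes, cytosolic ones and all protein-coding genes. Error bars are exact 95% binomial intervals over genes, n is the number of genes, and the bar for the 30 close same-strand members is at 0.

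Where a member had a close same-strand gene, the series of genes spaced by at most 500 bp was followed upstream to its first gene. This step was added after the members' peaks had been seen. The first gene had a peak for 16 of the 30 members (53.3%), against 4 of 7 cytosolic genes and 20.6% of all close same-strand genes. These were 15 of 29 different first genes, and 20 of the 30 members were second in their run. Counting a peak at the member itself or at the first gene of its run, 34 of 71 members (47.9%) had one, against 63 of 78 cytosolic genes (80.8%) and 12.8% of all protein-coding genes.

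The strongest of these first-gene peaks, rank 212 at -90 bp, belonged to *natc-1*, a subunit gene of an N-terminal acetyltransferase. It heads a run with *mrps-2* and *mrpl-4*, the only pair of members that share a first gene. *W04D2.4*, ahead of *mrps-11*, had a peak of rank 233, and *clsp-1*, ahead of *mrpl-54*, one of rank 313. *eif-3.E*, a translation initiation factor subunit gene at the head of the run of *mrps-30*, had one of rank 417. *rpn-3*, a proteasome subunit gene ahead of *mrpl-32*, had one of rank 454. Each of these exceeded the median member peak.

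Peaks that were lower than these but still above the median member peak, at rank 887.5, stood at 3 more first genes. They were *vps-37*, of the ESCRT-I complex, ahead of *mrpl-48* (rank 537), *F21D5.7* ahead of *mrps-33* (rank 607) and *cct-2*, a chaperonin subunit gene, ahead of *mrpl-50* (rank 852). Peaks below that median were at *uev-1* ahead of *mrps-27* (rank 906), *tag-124* ahead of *mrpl-53* (rank 982) and *F29B9.11* ahead of *mrps-21* (rank 1100). Another was at *atp-2*, the ATP synthase beta subunit gene, ahead of *mrps-26* (rank 1599). The lowest were at *T14B4.3* ahead of *mrps-18.C* (rank 2005) and *F13G3.7* ahead of *mrpl-13* (rank 2583). The peak of rank 851 between *mrps-24* and *emc-6*, a gene of the endoplasmic reticulum membrane complex has members on both sides. *mrps-24* starts to its right, and *mrpl-1* is second in the run that *emc-6* heads, with its own 5′ end at -824 bp from the summit.

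**Figure D4:**
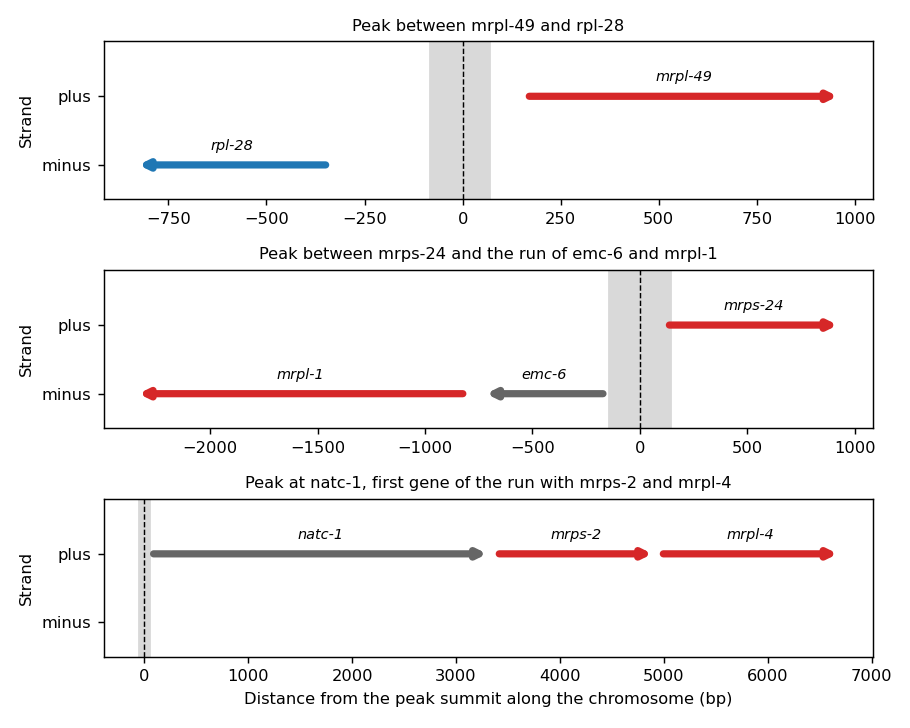
Genes around 3 peaks, drawn to scale as distance from the summit in bp along the chromosome, with members in red, a cytosolic ribosomal protein gene in blue, other genes in grey and the peak interval shaded. The peak of rank 220 lies between *mrpl-49* and *rpl-28*, that of rank 851 between *mrps-24* and *emc-6*, and that of rank 212 ahead of *natc-1*, with *mrps-2* and *mrpl-4* downstream of it on the same strand.

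Of the 53 members without a peak, 17 had a pooled region below the threshold, at ranks from 3370 to 28958. The strongest was at *mrps-15*, with a signal of 24.3 (rank 3370) at -88 bp and ranks of 8474 in replicate 1 and 2246 in replicate 2. *mrps-23* followed with 23.7 (rank 3467) at -104 bp and ranks of 4393 and 3549. *mrps-10* had 19.3 (rank 4469) at -202 bp, *mrpl-2* had 18.3 (rank 4807) at -101 bp and *mrpl-40* had 14.7 (rank 6531) at -156 bp. All 5 summits lay upstream, 4 of them between -156 and -88 bp. The threshold fell between *mrps-34*, the weakest bound member at 29.2, and *mrps-15*, the strongest unbound one at 24.3.

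No pooled region lay near the other 36 members, 24 of which had a close same-strand gene. Of these 36, 16 had a region in a replicate list and 20 had none in any list. The 36 were *mrpl-1*, *mrpl-4*, *mrpl-10*, *mrpl-15*, *mrpl-16*, *mrpl-18*, *mrpl-21*, *mrpl-23*, *mrpl-24*, *mrpl-30*, *mrpl-41*, *mrpl-42*, *mrpl-44*, *mrpl-46*, *mrpl-50*, *mrpl-51*, *mrpl-53*, *mrpl-54* and *mrpl-58* of the large subunit, and *mrps-2*, *mrps-5*, *mrps-9*, *mrps-11*, *mrps-14*, *mrps-16*, *mrps-17*, *mrps-18A*, *mrps-18C*, *mrps-18.C*, *mrps-21*, *mrps-22*, *mrps-25*, *mrps-26*, *mrps-27*, *mrps-30* and *mrps-33* of the small subunit.

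Some members without a pooled region had strong regions in the replicates, and they were singled out after their values had been seen. *mrps-16* had rank 2241 in replicate 1 and 3000 in replicate 2, while the nearest pooled summit stood at -2266 bp. *mrps-9* had ranks 2573 and 6909 with the nearest pooled summit at 2422 bp, and *mrpl-18* had ranks 2950 and 4991 with the nearest at 4925 bp. *mrps-17* had rank 1008 in replicate 2 and no region in replicate 1. A replicate region without a pooled one was present at 16 members (22.5%), against 6 cytosolic genes (7.69%) and 17.7% of all protein-coding genes. Of the strongest nuclear regions of each replicate, taken to the length of the thresholded list, 61 of 2646 in replicate 1 (2.31%) and 92 of 2645 in replicate 2 (3.48%) had no pooled summit within 500 bp. Why the pooled list lacks them was not tested.

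The bound members were spread over 5 chromosomes. Peaks were found at 5 of 15 members on chromosome I, 2 of 12 on II, 6 of 23 on III, 3 of 11 on IV and 2 of 10 on V, and no member lies on X. Over all protein-coding genes the shares were 13% on I, 8.36% on II, 11.9% on III, 9.39% on IV and 6.39% on V. With 10 to 23 genes a chromosome, the members' shares differed from each other by less than their counting error.

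Other nuclear genes for mitochondrial proteins were set beside the members. Of 20 mitochondrial translation genes found in the annotation, 4 had a peak (20%, exact 95% interval 5.73 to 43.7%), and the interval holds both the members' 25.4% and the 8.94% of all protein-coding genes. They were *gfm-1*, the mitochondrial elongation factor G gene (rank 592, signal 73.1 at -168 bp), *ears-2*, a glutamyl-tRNA synthetase gene (rank 591, signal 73.1 at -40 bp), *tufm-2*, an elongation factor Tu gene (rank 1613, signal 42.3 at -123 bp), and *hars-1*, the histidyl-tRNA synthetase gene (rank 1781, signal 39.2 at -120 bp). *dap-3*, whose product is a small-subunit protein of the mitochondrial ribosome although its symbol lies outside the rule, had no region in any list. It lies directly upstream of *mrps-22* on the same strand.

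Of 6 genes for mitochondrial DNA maintenance and transcription, 1 had a peak (16.7%, interval 0.421 to 64.1%, which also holds 8.94%), *mtss-1*, which encodes the mitochondrial single-stranded DNA binding protein (rank 1928, signal 37.2 at -231 bp). Of 16 genes for import and chaperones, 5 had a peak (31.2%, interval 11.0 to 58.7%), against 8.94% of all protein-coding genes. The strongest were *tin-9.1*, a small Tim chaperone gene (rank 308, signal 103 at -306 bp), and *tomm-20*, an outer membrane receptor gene (rank 364, signal 95.3 at -275 bp). *hsp-6*, the mitochondrial Hsp70 gene, had a signal of 69.2 (rank 676) at -447 bp, *timm-23* one of 48.6 (rank 1276) at -283 bp and *timm-17B.1* one of 37.9 (rank 1883) at -137 bp. No test of a difference between these lists and the members was made.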

How the data were processed

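ChIP-seq of tagged SNPC-4 in L3 larvae was taken as deposited, from 2 biological replicates of 1 group. The choice of extraction, aligner, peak caller and threshold is not given in the sources used here. Per the file headers, each ce11 list was made with a control alignment, and the thresholded list with the irreproducible discovery rate method from the pooled list and both replicate lists. The signal value of each region is the authors' own, in an arbitrary unit, and was used only within a list. The −log10 q-value that the authors deposited was the same for all thresholded peaks (3.88) and was not used. The lists on ce10 were not used.

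WBcel235 (ce11) gene starts were taken from RefSeq, read with python 3.11.15 and pandas 2.3.3. The distance is that of the strongest summit within 500 bp of a gene's 5′ end. Intervals are exact Clopper-Pearson intervals at 95% (scipy 1.17.1). Depth is unknown. No test was made, since there is no second condition and genes are not replicates. The steps were tested on simulated data. The text names every member with a peak, the 5 strongest members below the threshold, the members without a pooled region, the 3 strongest cytosolic genes, and every gene with a peak in the other mitochondrial lists. The members and lists were chosen with earlier results of these data known. Of the 24 mitochondrial translation symbols listed, 4 were not found in the annotation. Alternatives were other windows, the stronger 50% of the list, single replicates, isoforms, intervals and nearest starts; those on same-strand runs and on the replicate lists were added after the data were seen.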

Additional observations from a re-analysis of the deposited data

How the results depend on the processing

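The count of bound members ranged from 12 to 23 over the alternatives and stayed within 1.5 times the 18 reported. The count of bound cytosolic genes, 59, moved to 15 with a window of 250 bp (members 14) and to 29 with the nearest start only (members 12). A window of 250 bp leaves out summits farther away, and the median summit was at -291 bp for cytosolic genes against -141.5 bp for members. With the window of 1000 bp, *mrpl-1*, *mrpl-15*, *mrpl-23*, *mrpl-37* and *mrps-21* were added. The count of bound close same-strand members, 0, became 1 with a gap of 1000 bp, which put *mrpl-49* in that class.

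Without replicate 1 the members numbered 18 and the cytosolic genes 66, and *mrpl-12* and *mrpl-36* gave way to *mrps-15* and *mrps-17*. Without replicate 2 the members numbered 19 and the cytosolic genes 57, with *mrps-34* lost and *mrps-16* and *mrps-9* gained. Leaving out a replicate gave 0 to 1 bound close same-strand members, the 1 being *mrps-9*. Over the alternatives the median summit at members ran from -166 to -127 bp and the median rank from 630.5 to 1198.5. The value of 630.5 came from the stronger 50% of the list, a cut that lowers this median by construction. The value of -127 bp came from the window of 250 bp, which leaves out far summits, and from the nearest start only. Medians without a replicate are ranks within another list. No paired analysis was possible because there is 1 group. Depth is unknown, the annotated 5′ ends of trans-spliced genes may not mark transcription starts, and a peak between divergent genes cannot be assigned to one of them.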
